A study of Drosophila melanogaster with 18 samples.

Results

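The genes described here are Orc1, dpa, RnrL and Rbf, which stand for origin recognition, the replicative helicase, the supply of deoxyribonucleotides and the retinoblastoma homologue of Drosophila. They were taken by the gene symbol in the annotation of the array, and each is read by 1 probe set. They make up 4 of the 2249 distinct gene symbols, among 16322 probe sets in all. Orc1 and dpa lie on chromosome arm 2R with 6 annotated genes starting between them, RnrL on 2L and Rbf on X, in the RefSeq annotation of the fly genome.

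RNA of whole larvae of the third instar was hybridised to 18 Affymetrix Drosophila Gene 1.1 ST arrays, 2 in each of 9 groups, to follow how ectopic expression of the mammalian regulator DNMT3L acts on transcription over generations. Tub-3L larvae carry a UAS-DNMT3L transgene and a Tubulin-GAL4 driver, which is active in nearly all tissues, and were bred by self-crossing for the generations G1, G2, G4 and G5. Tub-3L G5P holds the G5 larvae that showed the phenotype of melanotic tumors. The control larvae UAS-3L G1 and UAS-3L G5 have the transgene but lack a driver. Embryos of w1118 received the original injection, so that every group but w1118 shares the transgene. For the Tubulin-GAL4 crosses a single insertion on the second chromosome was used. The group called UAS-3L* G20* here comes from flies from which the driver was removed. According to the paper, this was done by crossing Tub-3L flies of G20 to double balancer flies. The label of this group gives the title Tub-3L G20* but a description as larvae of G5, and the paper names G20, so its generation is uncertain. Each sample is RNA of a pool of larvae, and the 2 arrays of a group are labelled biological replicates. No source used here says whether the pools descend from separate crosses, so the p-values measure the spread between pools. In such bulk RNA a change in the number of cells of a type and a change in the RNA of each cell cannot be told apart.

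Before a cell copies its DNA, the origin recognition complex with Orc1 marks the sites where copying may start and loads the ring-shaped MCM helicase, of which dpa (the fly Mcm4) is a subunit. Ribonucleotide reductase, with RnrL as its large subunit, makes the deoxyribonucleotides that the polymerases use. Rbf binds the transcription factors of the E2F family with their partner Dp and restrains the genes of the S phase, among them many genes of the replication machinery. In the larva, imaginal discs, neuroblasts, blood cells and the germline divide, while most larval tissues grow by rounds of DNA replication without division.

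The deposited values are log2 signals normalised by the authors with RMA. The median signal of an array lay between 6.17 and 6.39, and its lower quartile between 4.16 and 4.57, so the 4 genes lay above the lower quartile of every array. limma was fitted to all 18 arrays with 1 mean per group, and for each comparison the p-values of all probe sets together underwent Benjamini-Hochberg adjustment. A gene passed the test at an adjusted p under 0.05. It was also called at least 2-fold where the signal differed by that much. Shares set beside the genes are of all 16322 probe sets. The 4 genes and the lists could come only from the 2392 probe sets with 1 symbol, whose shares are given with the pathway totals. Signals of different probe sets are not on a common scale, so levels are compared only within a gene or, for marker lists, as a sum over the same genes.

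Orc1, the subunit of the origin recognition complex that recruits the helicase loader, was low in all groups up to Tub-3L G2 and high in the last 3. Its log2 signals were 6.13 and 5.92 in w1118, 5.99 and 5.83 in UAS-3L G1, 6.33 and 6.04 in UAS-3L G5, and 5.97 and 6.42 in UAS-3L* G20*. They were 6.31 and 5.94 in Tub-3L G1 and 6.11 and 5.81 in Tub-3L G2. The 12 arrays of these 6 groups lay between 5.81 and 6.42, and most of these groups overlapped, although both arrays of UAS-3L G5 lay above those of UAS-3L G1. Of the 15 pairs among these groups 0 passed the test, with a smallest adjusted p of 0.316. The signals were 7.57 and 7.48 in Tub-3L G4, 8.05 and 8.07 in G5, and 9.24 on both arrays of G5P. Each of these groups lay above all arrays of the group before it, and the lowest array of Tub-3L G4 exceeded the highest of the 12 low arrays, at 6.42, by more than any of its replicate pairs differed.

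dpa followed the same order in the late groups and had a small early excess. Its log2 signals were 7.51 and 7.37 in w1118, 7.44 and 7.57 in UAS-3L G1, 7.62 and 7.45 in UAS-3L G5, and 7.58 and 7.38 in UAS-3L* G20*. They were 7.85 and 7.80 in Tub-3L G1 and 7.57 and 7.66 in Tub-3L G2. Both arrays of Tub-3L G1 lay above those of the groups without driver and of Tub-3L G2. The signals then were 8.12 and 8.18 in Tub-3L G4, 8.52 and 8.60 in G5, and in G5P they reached 9.53 and 9.55, with no overlap between these 3 groups or with any other.

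RnrL showed the clearest early excess of the 4. Its log2 signals were 6.49 and 6.72 in w1118, 6.43 and 6.57 in UAS-3L G1, 6.73 and 6.59 in UAS-3L G5, and 6.64 and 6.76 in UAS-3L* G20*. They were 6.99 and 7.10 in Tub-3L G1, above every array of the groups without driver, and 6.61 and 6.56 in Tub-3L G2, back among them. The signals were 7.34 and 7.32 in Tub-3L G4, 7.67 and 7.81 in G5, and in G5P they reached 8.96 and 8.80. These groups did not overlap with each other, nor with Tub-3L G1.

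Rbf had the narrowest range. Its log2 signals were 8.03 and 8.01 in w1118, 8.05 and 7.99 in UAS-3L G1, 7.85 and 8.03 in UAS-3L G5, and 8.05 and 7.97 in UAS-3L* G20*. They were 7.87 and 8.14 in Tub-3L G1 and 8.04 and 8.13 in Tub-3L G2, where both arrays lay above those of w1118 and UAS-3L G5. Of the 15 pairs among these 6 groups 0 passed, with a smallest adjusted p of 0.291. The signals were 8.31 and 8.38 in Tub-3L G4, 8.71 and 8.69 in G5, and in G5P they reached 9.40 and 9.44, without overlap.

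**Figure D1:**
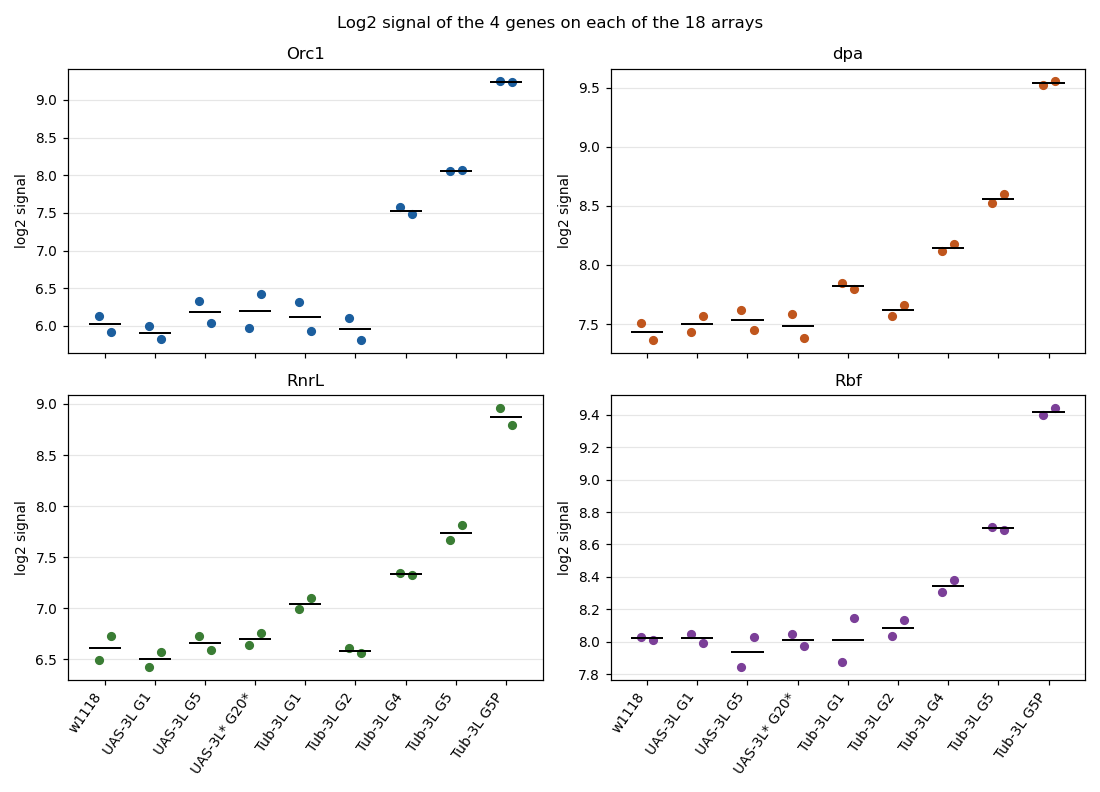
Log2 signal (vertical axis) of Orc1, dpa, RnrL and Rbf in the 9 groups (horizontal axis), with each array as a point and the mean of the 2 arrays as a bar. The vertical axes differ between panels and do not start at 0. In each panel Tub-3L G4, G5 and G5P lie above all other groups in this order, and dpa and RnrL are also raised in Tub-3L G1.

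In the first generation with the driver, dpa and RnrL rose against UAS-3L G1 while Orc1 and Rbf did not pass. RnrL was 1.46-fold higher (log2 fold change 0.54, SE 0.11, adjusted p = 0.00377, each group with 2 arrays) and dpa 1.25-fold higher (0.32, SE 0.0970, adjusted p = 0.0368). Orc1 differed by 0.21 (95% confidence interval -0.16 to 0.59), with 0.02 to 0.40 over the arrays left out, and Rbf by -0.01 (-0.23 to 0.20). These 2 of 4 stand against 11.5% of all probe sets that passed as higher. None of the 4 reached 2-fold. The call of dpa was lost without either array of Tub-3L G1 or of UAS-3L G1 (log2 fold change 0.25 to 0.39, highest adjusted p = 0.188), when each array was centred on its median (0.22, adjusted p = 0.140) and against UAS-3L G5 (0.29, adjusted p = 0.0580). That of RnrL was lost when only these 4 arrays were fitted (adjusted p = 0.0906).

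The early excess of RnrL was gone in the next generation. From Tub-3L G1 to Tub-3L G2 it fell by 0.46 on the log2 scale (SE 0.11, adjusted p = 0.00557), and 1 of 4 genes passed as lower beside 16.9% of all probe sets. dpa differed by -0.21 (95% interval -0.42 to 0.01, adjusted p = 0.129). Against UAS-3L G1, 0 of 4 genes passed in Tub-3L G2, where 16.9% of all probe sets passed as higher. The log2 fold changes lay between 0.05 for Orc1 and 0.11 for dpa.

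In Tub-3L G4 all 4 genes rose against UAS-3L G1, where 22.6% of probe sets passed as higher. Orc1 was 3.07-fold higher (log2 fold change 1.62, SE 0.17, adjusted p = 1.16e-05) and the only one of the 4 at 2-fold or more, beside 7.54% of probe sets. RnrL was 1.78-fold higher (0.83), dpa 1.56-fold (0.64, adjusted p = 0.000202) and Rbf 1.25-fold (0.32, SE 0.0981, adjusted p = 0.0187). The call of Rbf was lost when each array was centred on its median (0.18, adjusted p = 0.150), when the 4 arrays were fitted alone (adjusted p = 0.0643), and without the second array of UAS-3L G1 or of Tub-3L G4 (highest adjusted p = 0.104).

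In Tub-3L G5 all 4 had again risen against UAS-3L G1, beside 31.7% of probe sets. Orc1 was 4.42-fold higher (log2 fold change 2.15), RnrL 2.36-fold (1.24, SE 0.11) and dpa 2.08-fold (1.06), so 3 of 4 were called at least 2-fold, beside 13% of probe sets. dpa came out below 2-fold after median centring (0.87) and without the first array of UAS-3L G1 (0.99), which left 2 of 4. With each array centred on its median, 42.6% of all calls at 2-fold in this comparison were increases, against 56% as deposited. Rbf was 1.60-fold higher (0.68, adjusted p = 8.05e-05). Against the control of the same generation, UAS-3L G5, the 4 genes also passed, beside 29.8% of probe sets. Orc1 was then 3.67-fold higher, RnrL 2.11-fold, dpa 2.04-fold and Rbf 1.69-fold, so 3 of 4 were called at least 2-fold, beside 12.2% of probe sets. Median centring left 1 of 4 there, with 0.96 for RnrL and 0.91 for dpa, and without the second array of Tub-3L G5 or of UAS-3L G5 2 were left.

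Larvae with melanotic tumors had the highest signals. Against UAS-3L G1, Orc1 was 10.04-fold higher (log2 fold change 3.33, 95% interval 2.96 to 3.70, adjusted p = 4.99e-09). RnrL was 5.20-fold higher (2.38, 2.15 to 2.61, adjusted p = 1.22e-09), dpa 4.10-fold (2.04, 1.82 to 2.25, adjusted p = 2.49e-09) and Rbf 2.64-fold (1.40, 1.18 to 1.61, adjusted p = 8.99e-08). The interval of Orc1 lay above that of RnrL and the interval of Rbf below that of dpa, while those of RnrL and dpa overlapped. All 4 passed and were called at least 2-fold, where 33.6% of probe sets passed as higher and 15.2% were called at least 2-fold higher. Only 243 probe sets increased more than Orc1, or 1.49% of all, against 8.83% that increased more than Rbf.

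**Figure D2:**
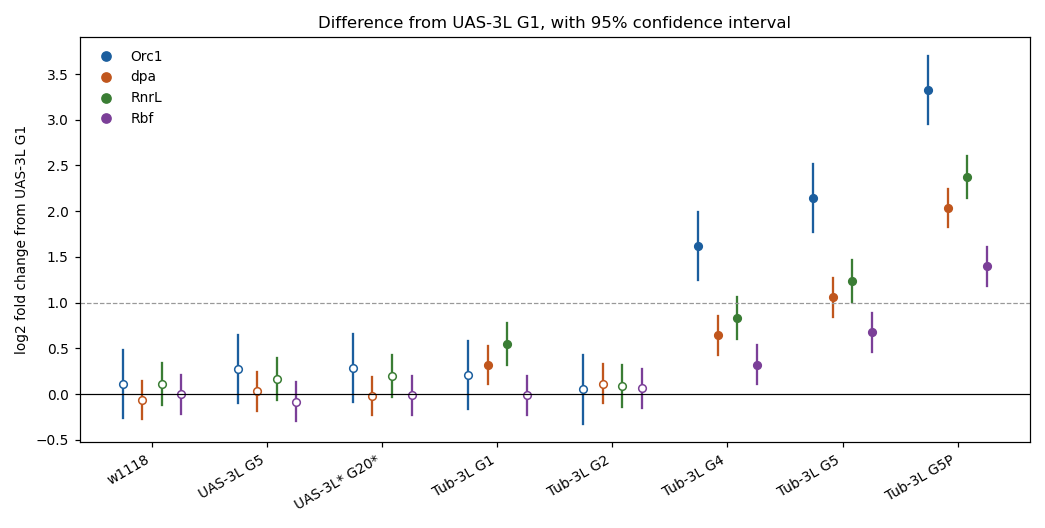
Log2 fold change from UAS-3L G1 (vertical axis) of the 4 genes in the other 8 groups (horizontal axis). Points are limma estimates from 2 arrays per group, lines are 95% confidence intervals, filled points have an adjusted p under 0.05 and the dashed line marks 2-fold. In Tub-3L G5P the 4 genes lie between 1.40 for Rbf and 3.33 for Orc1.

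The tumour-bearing larvae can be set against Tub-3L G5 larvae of the same generation and genotype. All 4 genes rose, beside 26.4% of probe sets that passed as higher. Orc1 was 2.27-fold higher (log2 fold change 1.18, adjusted p = 0.000130) and RnrL 2.20-fold (1.14, adjusted p = 4.25e-06), and these 2 of 4 were called at least 2-fold, as were 2.88% of probe sets. dpa stood just under that limit at 1.97-fold (0.98, SE 0.0970) and Rbf at 1.65-fold (0.72, SE 0.0981). The share of increases among all calls at 2-fold was 21.5% here, 40.3% after centring of every array on its median and 10.2% with the arrays scaled to the ribosomal protein gene RpLP0. The 4 genes passed under both scalings.

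Over the course from Tub-3L G2 on, the genes climbed in steps of unequal size. From G2 to G4 Orc1 rose by 1.57 on the log2 scale, RnrL by 0.75 and dpa by 0.53, and these 3 of 4 passed beside 16% of probe sets. Rbf differed by 0.26 (adjusted p = 0.0597). From G4 to G5 all 4 passed, beside 13.9% of probe sets, with increases of 0.53 for Orc1 (adjusted p = 0.0412), 0.42 for dpa, 0.41 for RnrL and 0.35 for Rbf. Orc1, dpa and RnrL passed as higher at each of the 3 steps from G2 to G5P, as did 2.08% of probe sets. The step from G4 to G5 was the least firm. Without the second array of Tub-3L G5 or the first of Tub-3L G4, 0 of 4 genes passed it, without the second of Tub-3L G4 1 passed and without the first of Tub-3L G5 2 passed. Over the arrays left out, the increase of Orc1 lay between 0.48 and 0.58 (highest adjusted p = 0.167).

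Expressed as a share of the increase in Tub-3L G5P over UAS-3L G1, Orc1 had made 48.6% of it in G4 and 64.5% in G5. The shares in G4 and G5 were 35.1% and 52.2% for RnrL, 31.6% and 52.0% for dpa, and 23.1% and 48.5% for Rbf. For dpa, RnrL and Rbf the shares in G5 thus lay close to each other, and that of Orc1 was higher. The difference between genes was not tested.

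After removal of the driver the signals of the 4 genes overlapped those of UAS-3L G5, while both arrays lay above those of UAS-3L G1 for RnrL. In UAS-3L* G20* against Tub-3L G5, Orc1 fell by 1.86 on the log2 scale (adjusted p = 1.56e-06), dpa by 1.08, RnrL by 1.04 and Rbf by 0.69. All 4 passed as lower, beside 30% of probe sets. Against UAS-3L G1, 0 of 4 passed, where 7.3% of probe sets passed as higher, and the log2 fold changes lay between -0.02 for dpa and 0.28 for Orc1 (95% interval -0.09 to 0.66). Against UAS-3L G5 the differences were 0.01 for Orc1, -0.05 for dpa, 0.04 for RnrL and 0.07 for Rbf. limma called 0 of the 16322 probe sets between these 2 groups at an adjusted p under 0.05, while 904 had an unadjusted p under 0.05. A t-test of these 2 groups gave 8 at an unadjusted p of at most 0.05 and the paper's 2-fold limit. In UAS-3L G5 and in w1118, 0 of 4 genes passed against UAS-3L G1, beside 8.14% and 13.9% of probe sets that passed as higher.

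Across the 9 group means the 4 genes ran closely together, with Pearson's r between 0.967 for Orc1 with Rbf and 0.994 for dpa with RnrL. This rests on the late Tub-3L groups, and the points share arrays and scaling. Over the 6 low groups r was -0.67 for Orc1 with Rbf and 0.82 for dpa with RnrL. Of 1338 other named genes whose group means spanned at least 1 on the log2 scale, between 11.9% (with RnrL) and 13.5% (with Orc1) had an r of at least 0.9 over the 9 groups, so such a value is common here.

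The 5 genes most like Orc1 over the 9 groups were del, nod, gwl, dah and c(2)M, with r from 0.992 to 0.994. del is known for the piRNA clusters of the germline, nod for chromosome segregation in female meiosis, gwl as the Greatwall kinase of mitosis and meiosis, and c(2)M as a part of the synaptonemal complex. For dpa they were U3-55K, E2f2, e(y)3, Grip84 and Rca1 (r from 0.985 to 0.994). E2f2 is a repressor of the E2F family, Grip84 a part of the gamma-tubulin ring complex and Rca1 an inhibitor of the anaphase-promoting complex. For RnrL they were U3-55K, Prat, E2f2, Grip84 and CG33172, with r from 0.988 to 0.995. For Rbf they were asf1, a histone chaperone that works at the replication fork, Su(var)3-7, the polymerase subunit PolA1, the centriole gene Sas-6 and CG13609, with r from 0.985 to 0.988. The 3 genes least like each were Gld, Cht10 and Ance for Orc1, Gfat1, CG43117 and Pxd for dpa, CG43117, Irk2 and GluRIIE for RnrL, and CG43117, Sgs8 and Cht10 for Rbf, with r between -0.979 and -0.995. Cht10 is a chitinase, Gfat1 acts in the synthesis of chitin precursors and Sgs8 is a glue protein of the salivary gland.

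The other named genes of origin recognition, Orc2 and Orc5, were highest in the larvae with tumors. Orc2, a subunit of the same complex, had log2 signals of 5.76 and 5.57 in UAS-3L G1, 6.05 and 6.42 in Tub-3L G1, and 6.93 and 6.83 in G5, while the arrays of G5P stood at 8.03 and 8.01. It was 2.36 higher on the log2 scale in G5P than in UAS-3L G1 and 1.22 higher in G5, and it had passed in Tub-3L G1 at 0.57. Unlike the 4 genes it also passed against UAS-3L G1 in groups without driver, at 0.79 in UAS-3L G5, 0.57 in UAS-3L* G20* and 0.37 in w1118. Against UAS-3L G5 its increase in Tub-3L G5 was 0.43 (adjusted p = 0.0112). Orc5 was 2.09 higher in G5P and 0.93 higher in G5, and both passed, while its 0.59 in G4 (adjusted p = 0.0502) and its decrease of 0.49 from Tub-3L G5 to UAS-3L* G20* (adjusted p = 0.0821) did not. Of the 4 named genes of the helicase activation list, Psf3 (1.79), rec (1.71) and Psf2 (1.31) rose in G5P, beside 33.6% of probe sets, and Psf1 differed by 0.36. In G5 2 of the 4 passed as higher, beside 31.7%, and in G4 1, beside 22.6%. In G2 0 passed as higher and 1 as lower, beside 13.5%. Against UAS-3L G5 the median of the list in Tub-3L G5 was 0.21. The Psf proteins form the GINS complex of the active helicase, while rec is known for its work in meiotic crossing over.

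At the replication fork itself, all 14 named genes rose in Tub-3L G5P against UAS-3L G1, beside 33.6% of probe sets, and all 14 at least 2-fold, beside 15.2%. Their median log2 fold change was 1.79, with a range from 1.04 for the topoisomerase Top1 to 2.78 for the primase subunit Prim2, beside a median of 0.007 over all probe sets. PolA2 of DNA polymerase alpha was 2.67 higher, RfC3 of the clamp loader 2.07, the flap endonuclease Fen1 2.03 and the ligase DNAlig1 2.03. In G5 14 of 14 passed as higher (median 0.72), beside 31.7%, and 3 were at least 2-fold, beside 13%. Against UAS-3L G5 12 of 14 passed there, beside 29.8%, and 1 was at least 2-fold, beside 12.2%. In G4 7 of 14 passed (median 0.41), beside 22.6%, and in G2 0 of 14, beside 16.9%. In G1 4 of 14 passed, beside 11.5%, which were RPA1 (0.74) and RPA2 (0.49) of the single-strand binding complex, RfC3 (0.70) and Fen1 (0.63). From Tub-3L G5 to UAS-3L* G20* 12 of 14 passed as lower, beside 30%. In the supply of deoxyribonucleotides, dnk, the deoxyribonucleoside kinase, was the only named gene beside RnrL. It passed as higher by 0.91 in G4, by 1.35 in G5 and by 2.60 in G5P, while it differed by -0.07 in Tub-3L G1, where RnrL was raised.

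**Figure D3:**
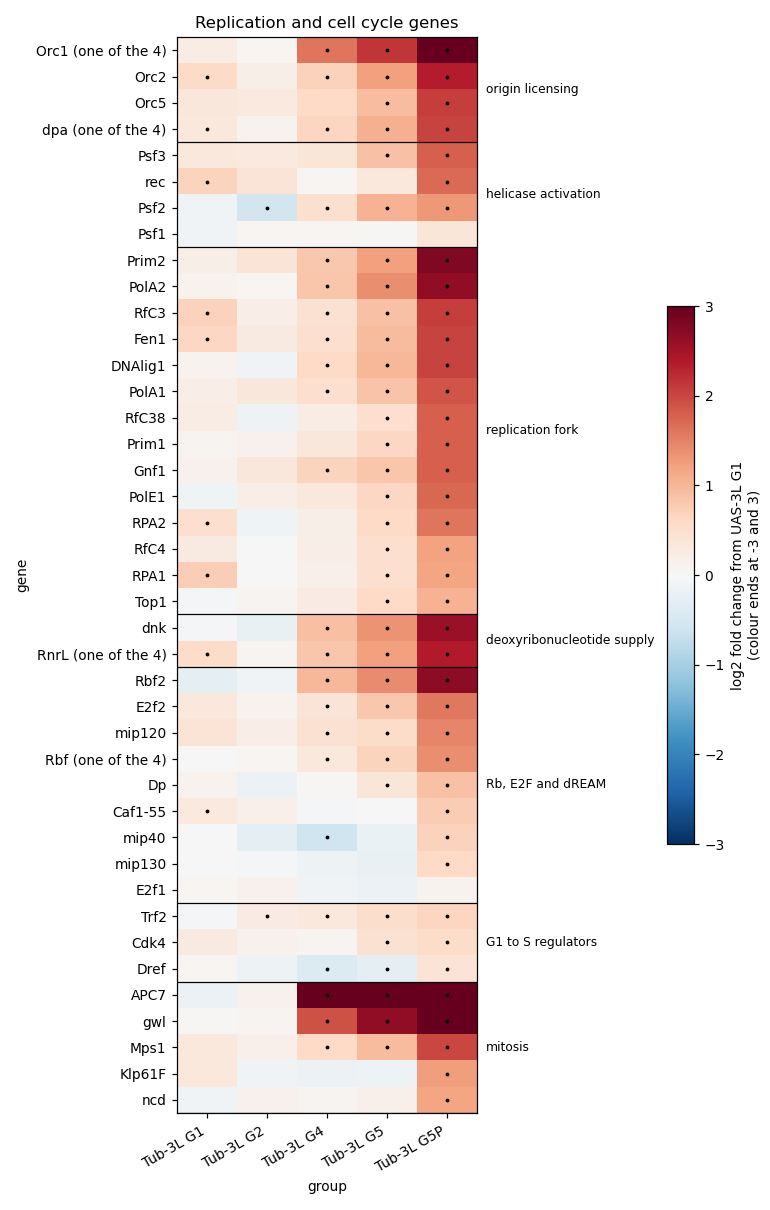
Log2 fold change from UAS-3L G1 (colour) of the named genes of 7 lists (rows) in the 5 Tub-3L groups (columns), including the 4 genes. A dot marks an adjusted p under 0.05 and colours end at 3 in both directions. The columns of G4, G5 and G5P grow redder in this order for origin and fork genes, and 4 of 14 fork genes carry a dot in G1 but 0 of 14 in G2.

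The genes that work with Rbf did not all follow it. Rbf2, the other retinoblastoma family protein of the fly, had log2 signals of 5.47 and 5.15 in UAS-3L G1, 6.17 and 6.45 in Tub-3L G4, and 6.74 and 6.73 in G5, while the arrays of G5P stood at 8.10 and 7.87. It was 2.68 higher in G5P and 1.43 in G5 than in UAS-3L G1, both of which passed, and it had also passed in G4. E2f2, which acts with both as a repressor, was 1.59 higher in G5P and 0.81 in G5. The activator E2f1 was at log2 signals of 10.65 and 10.74 in UAS-3L G1 and of 10.78 and 10.82 in G5P, a difference of 0.10 that did not pass, although its rise of 0.27 from Tub-3L G5 to G5P did. Dp, the partner of both E2F proteins, was 0.87 higher in G5P.

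Of the dREAM complex, through which E2f2 and Rbf silence genes, mip120 was 1.48 higher in G5P, Caf1-55 0.76, mip40 0.68 and mip130 0.61, each of which passed. In G5 mip120 (0.55) passed, while mip40 (-0.20), mip130 (-0.23) and Caf1-55 (0.01) did not. In all, 7 of the 8 named genes of the list other than Rbf passed as higher in G5P, beside 33.6% of probe sets. In G5 it was 4 of 8, beside 31.7%, and in G4 3 of 8, beside 22.6%. mip40 passed as lower in G4 at -0.60.

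**Figure D4:**
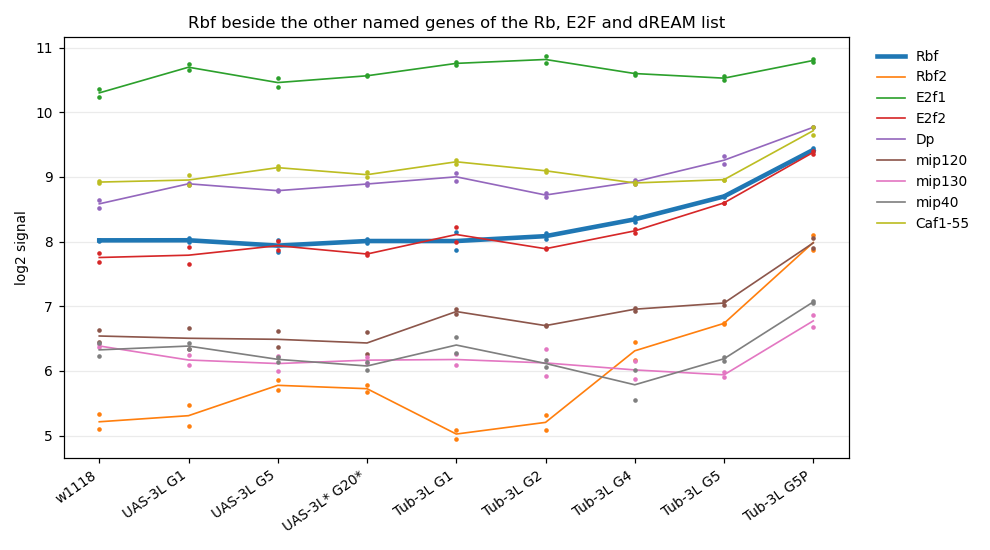
Log2 signal (vertical axis) of Rbf and 8 other genes of the Rb, E2F and dREAM list in the 9 groups (horizontal axis). Points are arrays and lines join the means of 2 arrays only to guide the eye. Heights of different genes are not comparable. Rbf, Rbf2 and E2f2 climb from Tub-3L G4 on, and E2f1 shows no such climb.

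Genes of the later cell cycle and histones also rose with the tumors. All 5 named mitosis genes passed as higher in G5P, beside 33.6% of probe sets. They were the kinases gwl (3.65) and Mps1 (1.99), the motor proteins Klp61F (1.25) and ncd (1.18), and APC7 (4.94), a subunit of the anaphase-promoting complex. Klp61F and ncd did not pass in G4 or G5, where their log2 fold changes lay between -0.18 and 0.14, while gwl and APC7 were already 1.90 and 3.56 higher in G4. The 3 named regulators of the entry into S phase moved less. Trf2 was 0.65 higher in G5P, Cdk4 0.55 and Dref 0.41, and Dref had passed as lower in G5 at -0.30. Of 21 named replication-dependent histone genes 20 passed as higher in G5P, with a median of 1.17, beside 33.6% of probe sets. In Tub-3L G1 15 passed, among them the 6 His1 genes with 1.01 to 1.16, beside 11.5%. In G2 5 passed as higher, beside 16.9%, and 2 as lower, beside 13.5%. They were also higher than in UAS-3L G1 without a driver, where 16 of 21 passed in UAS-3L G5 (median 0.45, beside 8.14%) and 14 in UAS-3L* G20* (median 0.47, beside 7.3%). Between Tub-3L G5 and UAS-3L G5 3 passed as higher, beside 29.8%, and 4 as lower, beside 27.5%. These histone genes are near-identical copies, and whether their probe sets share probes was not checked. The 21 genes hold 19 distinct sets of values. The 3 His2A probe sets hold the same values, so the counts are not all of separate measurements.

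Of the 37 named pathway genes other than the 4 and the histones, 7 passed as higher in Tub-3L G1 (18.9%, beside 11.5% of all probe sets) and 1 in G2 (2.7%, beside 16.9%). In G4 17 passed as higher (45.9%, beside 22.6%) and 2 as lower, where the 4 genes had all risen. In G5 28 passed as higher (75.7%, beside 31.7%), or 24 against UAS-3L G5 (64.9%, beside 29.8%), and 1 passed as lower against either control. In the larvae with tumors 35 passed (94.6%, beside 33.6%), of which 28 were at least 2-fold higher, beside 15.2%, and the median was 1.71. From Tub-3L G5 to G5P 33 of 37 passed as higher, beside 26.4%. Of the 2392 probe sets with 1 symbol, which hold these genes, 41.5% passed as higher in G5P, 18.6% at least 2-fold. Also against UAS-3L G1, the share passing was 37% for G5, 29.2% for G4, 15.6% for G2 and 14.1% for Tub-3L G1. Against UAS-3L G5 it was 35.1% for Tub-3L G5, and from G5 to G5P 31.6%. Only the share for G2 lay below that of all probe sets, so the excess of the pathway genes is smaller beside the others.

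Markers of other cell types moved in Tub-3L G4, G5 and G5P, and some of them also in groups where the 4 genes did not pass. Of 5 named genes of the female germline list, otu, zpg, orb and del passed as higher and at least 2-fold in Tub-3L G4, G5 and G5P, and bgcn as lower in G4 and G5P. Of all probe sets 7.54%, 13% and 15.2% were called at least 2-fold higher in G4, G5 and G5P. Sums over a marker list follow the genes with the brightest probe sets, so they do not weigh the genes alike. The summed linear signal of the 5 ranged from 206 to 210 in UAS-3L G1 and from 312 to 327 in Tub-3L G2. In that group 2 of the 5, orb (0.88) and del (0.41), already passed as higher, beside 16.9% of probe sets. The sum ranged from 1586 to 1615 in Tub-3L G4, from 2695 to 2700 in G5 and from 4005 to 4375 in G5P. otu, which oogenesis needs, was at log2 signals of 2.53 and 3.32 in UAS-3L G1, below the lower quartile. Of 7 named male germline genes 6 passed as higher in Tub-3L G2, beside 16.9% of probe sets, and 4 in G4, beside 22.6%. In G5 4 passed as higher, beside 31.7%, and 1 as lower, beside 25.9%. In G5P 1 passed as higher, beside 33.6%, and 2 as lower, beside 28.7%. The sum of the 7 was 1133 to 1178 in G2, where 0 of the 4 genes passed. It was then 1322 to 1372 in G5 and 550 to 567 in G5P, against 546 to 646 in UAS-3L G1. The 4 genes rose from G5 to G5P while this sum was lower in G5P than in G5. How the sum relates to the 4 genes was not tested.

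The 5 named hemocyte genes, He, PPO1, Pxn, eater and gcm, passed as lower in G5, beside 25.9% of probe sets, and in G5P, beside 28.7%. In G4 4 of the 5 passed as lower, beside 21%, and 1 as higher, beside 22.6%. The sum of the 5 went from 952 to 1001 in UAS-3L G1 to 141 to 159 in G5P. In Tub-3L G1, where RnrL and dpa were raised, it was 1036 to 1053. In w1118, where 0 of the 4 genes passed, it was 2175 to 2243, and 3 of the 5 passed as higher, beside 13.9%. The paper saw more hemocytes in the hemolymph of G5 Tub-3L larvae, with or without tumors, than in UAS-3L larvae. It also describes many lamellocytes there. How the lower RNA of these 5 genes in whole larvae relates to the number of blood cells was not tested. The 6 salivary glue genes passed as lower in G4, beside 21% of probe sets, in G5 and in G5P, and again from G5 to G5P, beside 26.3% of probe sets. In Tub-3L G2 4 of 6 had passed as lower, beside 13.5%. Their sum was 19569 to 20905 in UAS-3L G1, 13148 to 13275 in Tub-3L G2, 4452 to 4583 in Tub-3L G4, 3448 to 3847 in G5 and 87.8 to 90.1 in G5P. Of the imaginal disc genes only ey and eyg were named, both lower in G5P. The neuroblast list and the list of genes for the sex composition of the pools have no named gene here. The share of each sex in the pools was thus not checked. The paper gives the larvae only as of approximately the same stage. The part of these cell types, or of a difference in stage or sex, in the values of Orc1, dpa, RnrL and Rbf was not tested.

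**Figure D5:**
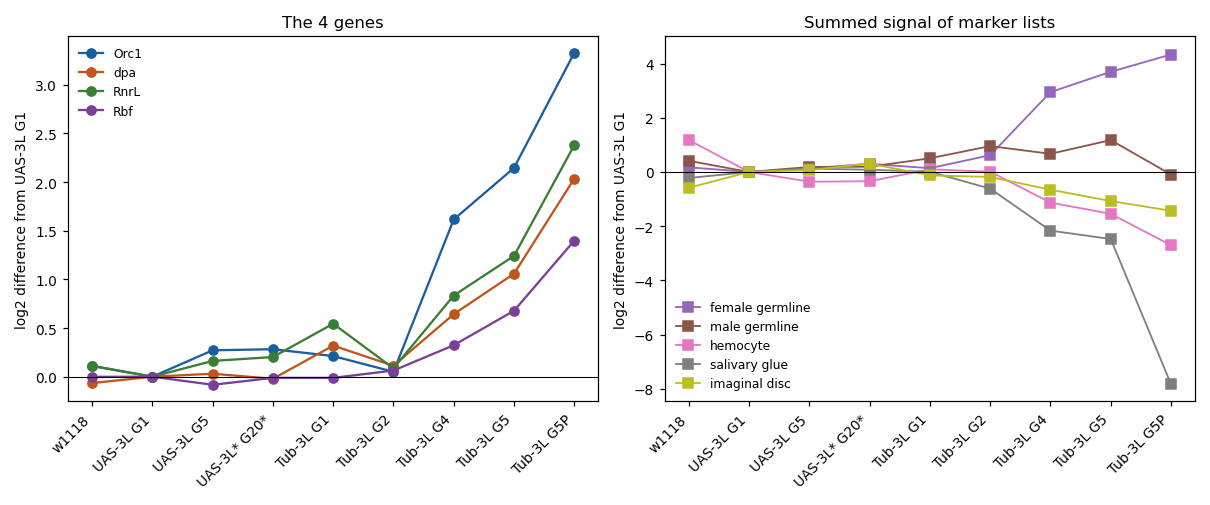
Log2 difference from UAS-3L G1 (vertical axes, which differ in range) of the 4 genes (left, means of 2 arrays) and of the summed linear signal of 5 marker lists (right, squares at the middle of the 2 arrays and lines between them) in the 9 groups (horizontal axis). Lines between groups only guide the eye. From Tub-3L G4 on the 4 genes and the female germline sum rise while the glue and hemocyte sums fall. The female germline sum is already higher, and the glue sum already lower, in Tub-3L G2.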

How the data were processed

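The deposited values are log2 signals, which the authors normalised with RMA at gene level. The submitters' processing notes name Affymetrix Expression Console 1.3. They were used as deposited, for 16322 probe sets on 18 arrays, with 0 per-sample columns left out. A second table, with 9 columns of averages that no label ties to a group, was left out. The array annotation gives 1 symbol to 2392 probe sets, all with a current RefSeq record. No source used here names the genome build behind it, and promoter sequences were not analysed here.

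R 4.3.3 and limma 3.58.1 (lmFit, eBayes, 9 residual and 2.71 prior degrees of freedom) were used, with 16 comparisons, each with Benjamini-Hochberg adjustment over all probe sets. The fit was tested on simulated data. The number of arrays limits the precision. The 4 genes, the 8 pathway and 7 marker lists and the tests were chosen with earlier results of these data known. Genes named are the 4, for each the 5 others with the highest and the 3 with the lowest Pearson's r over the group means (range at least 1), any named pathway list gene, and up to 4 genes per marker list, or all where a count needed them. Of several probe sets of a list gene the one with the highest mean was taken. Alternatives were median centring, quantile normalisation, scaling to RpLP0, a filter on dim probe sets, a variance trend and fits of the groups compared alone. Others were a t-test of the 2 groups, UAS-3L G5 as control, the replicate block and each array left out. The paper names a one-way ANOVA, and the t-test was run with and without adjustment.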

Additional observations from a re-analysis of the deposited data

Results flagged for a closer look

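The difference between Tub-3L and UAS-3L larvae was larger in G5 than in G1 for all 4 genes. No group has the driver without the transgene, so driver and DNMT3L cannot be told apart here. The difference between Tub-3L and UAS-3L in G5, less the same difference in G1, was 1.66 on the log2 scale for Orc1 (SE 0.24, adjusted p = 0.000125 by limma), 0.71 for dpa (SE 0.14, adjusted p = 0.00110), 0.53 for RnrL (SE 0.15, adjusted p = 0.0108) and 0.77 for Rbf (SE 0.14, adjusted p = 0.000632), with n = 2 arrays per group. Of all probe sets 46.2% passed this test in either direction, so a difference of this kind is common in these data.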

How the results depend on the processing

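Of 376 values of the 4 genes in 10 comparisons under 10 alternatives, 347 kept their direction and their side of the threshold, as did 693 of 720 with 1 array left out. For each gene, the differences of Tub-3L G5 and G5P from UAS-3L G1 and of UAS-3L* G20* from Tub-3L G5 passed under all of these. With the replicate block no call of the 4 changed, and Orc1 in Tub-3L G5P stayed at 3.33. Samples of the same number did not deviate together (36 pairs of groups, r from -0.0643 to 0.0394), so the numbers were not used to pair them.

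In Tub-3L G1 against UAS-3L G1, dpa lost its call with median centring (0.22), the 2 groups alone (0.32), the t-test after adjustment (0.32) and UAS-3L G5 as control (0.29). RnrL lost it with the 2 groups alone and the adjusted t-test (0.54 in both). Members passing went from 2 to 1, 0, 0 and 1 under the settings listed for dpa. Rbf and Orc1, not called, changed sign, Rbf to 0.05 with RpLP0 scaling and 0.07 against UAS-3L G5, Orc1 to -0.06. In Tub-3L G4 against UAS-3L G1, Rbf lost its call with centring (0.18), the 2 groups alone (0.32) and the adjusted t-test (0.32), which also lost dpa (0.64) and RnrL (0.83) and left 1 of 4. From G4 to G5, Orc1 lost it with centring (0.48) and RpLP0 (0.56), and Rbf with the 2 groups alone (0.35). The adjusted t-test left 0 of 4 there (Orc1 0.53, dpa 0.42, RnrL 0.41, Rbf 0.35), 0 from G1 to G2 (RnrL -0.46) and 1 from G2 to G4 (lost Orc1 1.57 and dpa 0.53). It also lost RnrL from G5 to G5P (1.14), leaving 1 at 2-fold. From G2 to G4 Rbf gained a call with RpLP0 (0.35), without the dimmest 25% of probe sets, with a variance trend and in the unadjusted t-test (0.26 in all 3). With no fold threshold 4 genes counted in Tub-3L G4 against UAS-3L G1 in place of 1, and 4 from G5 to G5P in place of 2. Over the 18 arrays 3 of the 5 genes most like Orc1, dpa, RnrL and Rbf each stayed among the 5.

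With 1 array left out, values ranged in Tub-3L G1 against UAS-3L G1 from 0.02 to 0.40 for Orc1, 0.25 to 0.39 for dpa and -0.15 to 0.12 for Rbf (1 to 2 genes passing), from G1 to G2 from -0.35 to 0.03 for Orc1 and -0.06 to 0.21 for Rbf, from G2 to G4 from 0.21 to 0.31 for Rbf, and in Tub-3L G4 against UAS-3L G1 from 0.29 to 0.36 for Rbf. From G4 to G5 they ranged from 0.48 to 0.58 for Orc1, 0.38 to 0.45 for dpa, 0.34 to 0.48 for RnrL and 0.32 to 0.39 for Rbf (0 to 4 genes passing). Where a group kept 1 array, it was taken to vary like the others. The cause of these losses was not tested. Median centring moved the median of all probe sets by up to 0.19 (Tub-3L G5 against UAS-3L G1). With 2 arrays per group, small differences such as those of Rbf in G4 were at the limit of detection.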
